A study of Saccharomyces cerevisiae with 17 samples.

Results

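The genes described here encode 55 assembly and export factors of the large (60S) ribosomal subunit of budding yeast, Saccharomyces cerevisiae. They were listed by systematic name for their known function. No RNA level enters the rule, but the list was chosen with earlier results of these data known. Of the 55 genes, 54 have a row among the 5326 named genes of the deposited table. The exception is NOG2 (YNR053C, chromosome XIV 721120 to 723112, sacCer3), a nuclear GTPase of late assembly, for which no value was used here. In growing yeast, RNA polymerase I makes a long precursor of the ribosomal RNAs in the nucleolus, and the 60S precursor is then folded, cut, modified and loaded with ribosomal proteins by a series of assembly factors. These factors include RNA helicases, GTPases, ATPases of the AAA family and proteins that hold the place of a ribosomal protein, and most of them leave before the subunit is exported and joins translation. Their genes are known as part of a large regulon of ribosome biogenesis genes, which yeast transcribes in step with nutrient supply and growth.

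Steady-state RNA was sequenced after rRNA depletion in haploid MATa cells of the BY4741 laboratory strain, whose labels carry the same his3-, leu2-, met15- and ura3- markers for every sample, grown to mid-log phase in YPD, a rich glucose medium, at 30 °C. Wild type was sequenced beside 3 mutants, the set2 deletion (written set2Δ below), the eaf3 deletion (eaf3Δ) and the histone point mutant H3K36A, with 2 biological replicate libraries for each of the 4 genotypes. Set2 is the methyltransferase of lysine 36 of histone H3, H3K36A puts alanine in place of that lysine, and Eaf3 recognises the methylated lysine through its chromodomain. The deposited table holds 1 column per genotype, the authors' mean RPKM (reads scaled by gene length and library size), so the spread between replicates and the read depth are unknown. No difference could be tested, and all levels given are means by the authors.

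RPKM values of the mutants were mostly under those of wild type, and the assembly genes are therefore read against all genes. The 3657 genes compared are those whose RPKM averaged 10 or more across the 4 genotypes, and their median log2 ratio to wild type was -0.23 (set2Δ), -0.36 (eaf3Δ) and -0.32 (H3K36A). Small nuclear and nucleolar RNAs with SCR1, RPR1 and NME1 made up 22.7% of the summed RPKM in wild type and 27.1% to 29.9% in the mutants. Ratios are log2((mutant + 1)/(wild type + 1)), and "at least 2-fold lower" means a ratio of -1 or less on that scale. SET2, EAF3, HHT1 and HHT2 have no row in the table as used here, so the genotypes were not checked on the altered genes. In RNA from whole cultures, less RNA per cell and fewer cells that express a gene cannot be told apart.

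The RNAs of 60S assembly factors were lower in all 3 mutants, at the median least in set2Δ and most in H3K36A. In H3K36A, 46 of the 51 members that met the minimum mean were at least 2-fold lower, against 18.0% of all genes compared. In eaf3Δ 36 of 51 were, against 16.0%, and in set2Δ 28 of 51, against 6.43%. No member was at least 2-fold higher in any mutant, where 1.26% (set2Δ), 1.53% (eaf3Δ) and 3.91% (H3K36A) of genes compared were. The median log2 ratio of these 51 was -1.87 in H3K36A, -1.44 in eaf3Δ and -1.08 in set2Δ. The 3 mutants share the wild-type column, so these counts are not independent of each other.

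**Figure D1:**
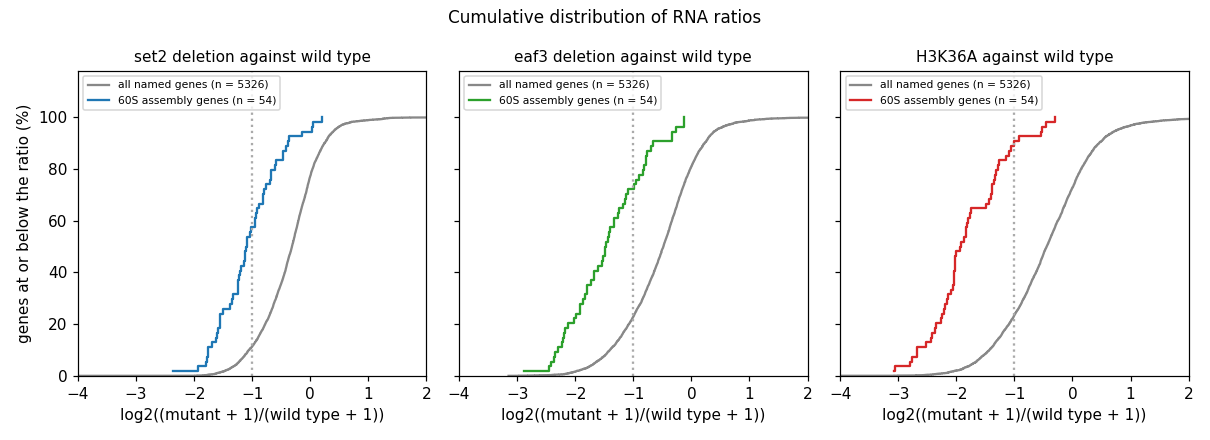
Cumulative percentage of genes (vertical axis) at or below a given log2 ratio to wild type (horizontal axis) in each mutant, for all 5326 named genes in grey and the 54 60S assembly genes in colour. The dotted line marks a 2-fold lower value; the coloured curve lies to the left of the grey curve in each panel, farthest in H3K36A.

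Because the mean of a gene holds its mutant values, the minimum of 10 left out the 3 members NOP8, NOP16 and LOC1, each above 10 in wild type. Over all 54 members with a row, 31 were at least 2-fold lower in set2Δ, 39 in eaf3Δ and 49 in H3K36A, against 11.4%, 22.9% and 23.5% of all named genes. Relative to the median gene of each comparison, 18, 28 and 39 of the 51 members were at least 2-fold lower, in the same order of mutants, against 2.90%, 7.03% and 9.68% of genes. Any lower value than wild type was seen for 54 of 54 members in H3K36A and in eaf3Δ, and for 51 of 54 in set2Δ, where all named genes gave 72.8%, 81.0% and 77.3%. Relative to the median gene compared, the exceptions were TIF6 in H3K36A; NIP7, NOG1, NUG1, RSA4 and TIF6 in eaf3Δ; and NIP7, NOG1, NUG1 and TIF6 in set2Δ. Of the 100 lowest ratios among genes compared, 26 in H3K36A and 17 in each deletion belonged to 60S assembly genes. The members made up 51 of the 3657 genes compared.

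The summed RNA level of the set was lower in each mutant. Summed over the 54 genes, RPKM was 4237 in wild type, 2780 in set2Δ, 2220 in eaf3Δ and 1720 in H3K36A. As a share of the RPKM of all named genes, the sum was 0.374% in wild type, 0.229% in set2Δ, 0.189% in eaf3Δ and 0.143% in H3K36A. The median member had 56.4 RPKM in wild type, 22.8 in set2Δ, 17.7 in eaf3Δ and 13.5 in H3K36A, while the median of all named genes was 23.0, 17.5, 15.4 and 16.04. The assembly genes thus lay well above the median gene in wild type and below it in H3K36A. No member was under 10 RPKM in wild type, where 22.3% of all named genes were. In H3K36A 20 of the 54 were, close to the 36.8% of all named genes.

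**Figure D2:**
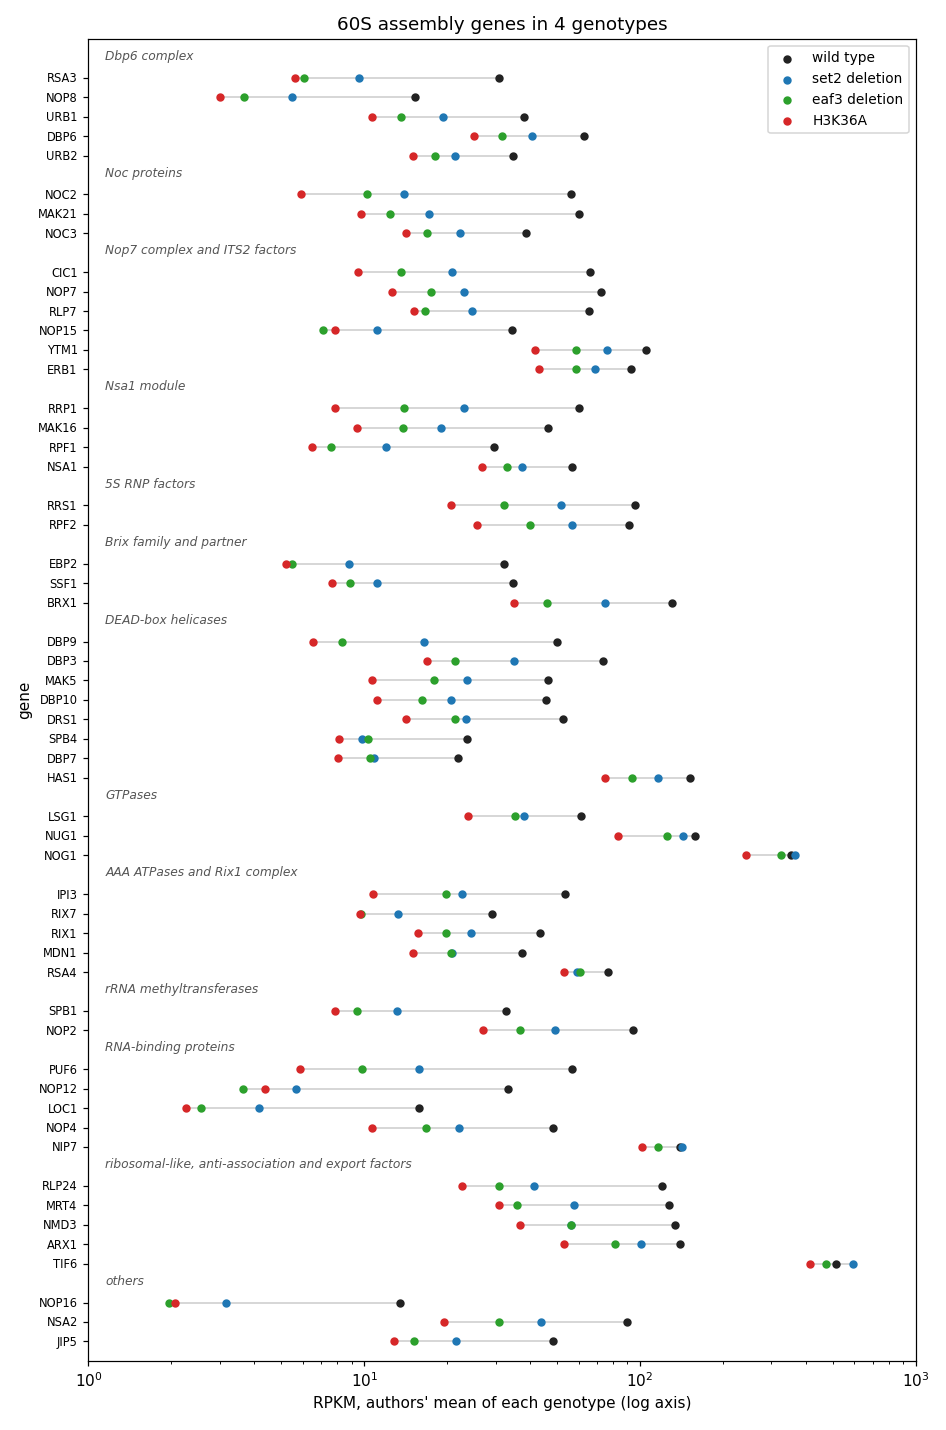
RPKM of each 60S assembly gene with a row (log axis), grouped by role; each point is the authors' mean of 1 genotype and the grey line joins the lowest and highest of the 4. In nearly every row wild type (black) is at the right, followed by set2Δ, eaf3Δ and H3K36A; NOG1, NIP7 and TIF6 have their highest value in set2Δ.

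Assembly begins with factors that bind the earliest precursor. The helicase Dbp6 works there in a complex with Urb1, Urb2, Nop8 and Rsa3, and the 5 genes had a median of 50.9% of the wild-type RPKM in set2Δ, 35.6% in eaf3Δ and 27.9% in H3K36A. RSA3 had the lowest ratio to wild type of them in each mutant, with an RPKM of 30.8 in wild type, 9.60 in set2Δ, 6.05 in eaf3Δ and 5.61 in H3K36A. URB2 had the highest ratio of them in eaf3Δ and H3K36A, with 34.7, 21.4, 18.1 and 15.1 in the same order of genotypes. All 5 were at least 2-fold lower in H3K36A, 3 in eaf3Δ and 2 in set2Δ, against 23.5%, 22.9% and 11.4% of all named genes.

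The Noc proteins act as pairs, Noc1 (encoded by MAK21) with Noc2 on early precursors and Noc2 with Noc3 on later ones. NOC2 (YOR206W, chromosome XV 727512 to 729644) had 56.2 RPKM in wild type, 13.9 in set2Δ, 10.2 in eaf3Δ and 5.90 in H3K36A, the fifth lowest ratio of all genes compared in the last. MAK21 had 60.2, 17.1, 12.4 and 9.71, and NOC3 38.6, 22.3, 16.8 and 14.1. The level of NOC2 was 146% of that of NOC3 in wild type and 41.8% in H3K36A, so the order of these partners was exchanged.

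Nop7, Erb1 and Ytm1 form a complex that is needed for processing of the precursor, and Rlp7, Nop15 and Cic1 bind at its internal spacer ITS2. The 3 subunit genes of the complex differed from wild type to unequal degrees. NOP7 had 72.5 RPKM in wild type, 23.1 in set2Δ, 17.5 in eaf3Δ and 12.6 in H3K36A. ERB1 had 92.6, 68.8, 58.5 and 43.0, and YTM1 105.3, 76.0, 58.5 and 41.8. NOP7 RNA was thus at 78.3% of ERB1 RNA in wild type and at 29.2% to 33.6% in the mutants, while YTM1 stayed between 97.0% and 114% of ERB1 in the 4 genotypes. CIC1 had the lowest ratio of the 6 genes in each mutant, with 66.2, 20.9, 13.6 and 9.53 RPKM. RLP7 and NOP15 lay near 23% of wild type in H3K36A (23.3% and 22.9%), and NOP15 was lower in eaf3Δ (7.11) than in H3K36A (7.87).

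A similar unevenness was seen in the Nsa1 module, a group of proteins that joins the nucleolar precursor and is removed by the ATPase Rix7. RRP1 (YDR087C, chromosome IV 617470 to 618306) had 59.96 RPKM in wild type, 23.1 in set2Δ, 13.96 in eaf3Δ and 7.81 in H3K36A, while NSA1 had 56.6, 37.3, 33.1 and 26.7. RRP1 RNA went from 106% of NSA1 RNA in wild type to 29.2% in H3K36A. MAK16 and RPF1 lay between them, at 20.2% and 21.8% of wild type in H3K36A.

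Rpf2 and Rrs1 bring the 5S RNA particle into the precursor. This pair stayed closer in level than NOP7 and ERB1 did. RPF2 had 91.6, 56.6, 39.8 and 25.7 RPKM in wild type, set2Δ, eaf3Δ and H3K36A, and RRS1 had 95.9, 51.7, 32.3 and 20.7. RRS1 RNA was at 105% of RPF2 RNA in wild type and at 80.5% to 91.3% in the mutants. Neither was at least 2-fold lower in set2Δ, where 11.4% of all named genes were. Both were in eaf3Δ and H3K36A, against 22.9% and 23.5%. Among relatives of Rpf2 with the same Brix domain, BRX1 had 130.4, 74.9, 46.2 and 34.9 RPKM in the same order. SSF1 was at 22.1% of wild type in H3K36A, and EBP2, which encodes the partner of Brx1, had the lowest ratio of these in H3K36A, with 32.2, 8.80, 5.46 and 5.19.

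DEAD-box RNA helicases remodel the precursor, and the 8 genes outside the Dbp6 complex were all at least 2-fold lower in H3K36A, 6 in eaf3Δ and 5 in set2Δ, against 23.5%, 22.9% and 11.4% of all named genes. DBP9 had 50.04 RPKM in wild type, 16.4 in set2Δ, 8.32 in eaf3Δ and 6.53 in H3K36A. HAS1, a helicase used in both subunits, had 151.4, 116.3, 93.7 and 74.9, and its log2 ratio of -1.01 in H3K36A only just passed 2-fold. The other helicase genes, DBP3, MAK5, DBP10, DRS1, SPB4 and DBP7, lay between 22.9% and 36.6% of wild type in H3K36A. SPB4 was 1 of 2 members with no lower value in eaf3Δ than in set2Δ (10.3 against 9.80 RPKM).

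The 2 genes of the set grouped as rRNA methyltransferases were both lower in each mutant. NOP2, which encodes a cytosine methyltransferase, had 94.1 RPKM in wild type, 49.3 in set2Δ, 36.6 in eaf3Δ and 26.9 in H3K36A. SPB1, which encodes a methyltransferase of ribose, had 32.6, 13.2, 9.45 and 7.86.

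RNA-binding factors spread widely. PUF6 (YDR496C, chromosome IV 1441433 to 1443403), a protein of the Pumilio family that also represses ASH1 mRNA, had 56.6 RPKM in wild type, 15.8 in set2Δ, 9.84 in eaf3Δ and 5.87 in H3K36A. Its ratio in H3K36A, -3.07 on the log2 scale, was the lowest of the 54 and the fourth lowest of all genes compared. NOP12 (YOL041C, chromosome XV 251267 to 252646), needed for processing of the 25S rRNA precursor, had 33.4, 5.66, 3.65 and 4.35, and had the lowest ratio of the members in both deletions. LOC1, also known from localization of ASH1 mRNA, had 15.7, 4.16, 2.56 and 2.26, and NOP4 was at 21.95% of wild type in H3K36A. NIP7 (YPL211W, chromosome XVI 153495 to 154040) lay close to wild type in set2Δ, with 139.8, 141.9, 116.3 and 101.7 RPKM, and did not pass 2-fold in any mutant.

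The GTPases had the highest median percentage of wild type of the 13 role groups in each mutant, 90.7% in set2Δ, 79.6% in eaf3Δ and 52.7% in H3K36A. NOG1 (YPL093W, chromosome XVI 370978 to 372921), which acts in the nucleolus and travels with the precursor to the cytoplasm, had 354.1 RPKM in wild type, 364.1 in set2Δ, 323.8 in eaf3Δ and 242.6 in H3K36A. NUG1, a nuclear GTPase, had 157.9, 143.3, 125.7 and 83.2. LSG1, the cytoplasmic GTPase that acts on the export adaptor Nmd3, had 61.4, 38.1, 35.1 and 23.8. It was the 1 GTPase gene of 3 at least 2-fold lower in H3K36A, a count near the 23.5% of all named genes.

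AAA ATPases strip factors from the precursor. MDN1 (listed in RefSeq as REA1), the longest gene of the set at 14733 bp, encodes the ATPase that pulls off Ytm1 and Rsa4, and had 37.3 RPKM in wild type, 20.9 in set2Δ, 20.6 in eaf3Δ and 15.0 in H3K36A. Its partner gene RSA4 lay closer to wild type, with 76.9, 59.3, 60.7 and 53.0. Within the Rix1 complex, IPI3 had 53.5, 22.6, 19.8 and 10.8 and RIX1 43.5, 24.4, 19.8 and 15.7, so RIX1 RNA went from 81.2% of IPI3 RNA in wild type to 146% in H3K36A. RIX7 was at 33.2% of wild type in H3K36A.

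Factors of the last nuclear and cytoplasmic steps also spread widely. RLP24, whose protein holds the place of ribosomal protein Rpl24, had 120.0 RPKM in wild type, 41.5 in set2Δ, 30.8 in eaf3Δ and 22.7 in H3K36A. MRT4, whose protein holds the place of P0, had 127.6, 57.9, 35.8 and 30.8. NMD3, the adaptor for the export receptor, had 134.3, 56.2, 56.1 and 36.8, and ARX1, another export factor, 140.0, 101.02, 81.4 and 53.2. TIF6 (YPR016C, chromosome XVI 592332 to 593069), whose protein keeps the subunits from joining too early, had the highest RPKM of the set and the highest ratio in every mutant, with 513.6 in wild type, 592.3 in set2Δ, 472.5 in eaf3Δ and 414.8 in H3K36A. Its log2 ratio of -0.31 in H3K36A equalled that of the median gene within 0.01, and after quantile normalization of the columns its ratio in eaf3Δ was no longer below wild type. Of the remaining genes, NOP16 had 13.5, 3.16, 1.97 and 2.06 RPKM, JIP5 48.3, 21.5, 15.1 and 12.8, and NSA2 was at 21.7% of wild type in H3K36A.

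**Figure D3:**
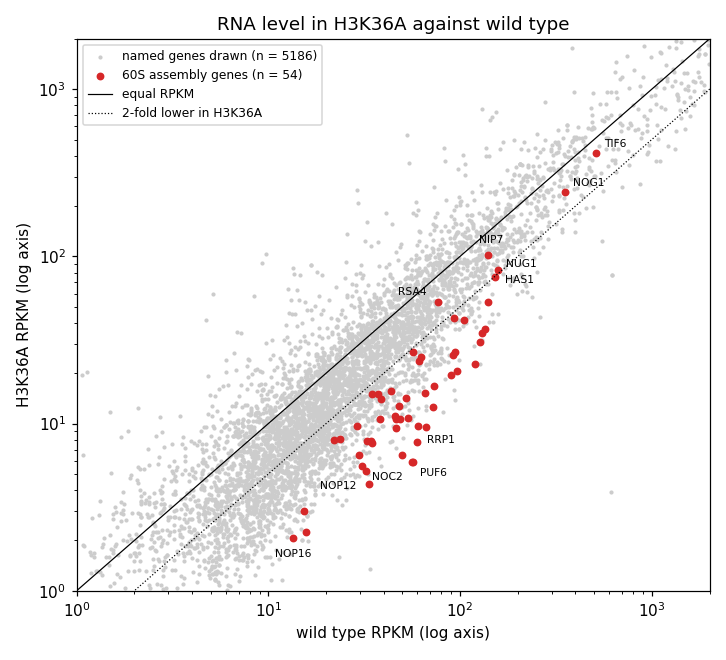
RPKM in H3K36A (vertical) against wild type (horizontal), both on log axes, for named genes up to 2000 RPKM in both (grey, 5186 drawn and 140 above the limit left out) and the 54 60S assembly genes (red). The solid line marks equal RPKM and the dotted line a 2-fold lower RPKM; TIF6, NOG1, NIP7, RSA4 and NUG1 lie between the lines and PUF6, NOC2, RRP1 and NOP12 far under the dotted one.

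Members were also grouped by their abundance in wild type. Of the 11 members with at least 100 RPKM in wild type, 3 were at least 2-fold lower in set2Δ, 4 in eaf3Δ and 7 in H3K36A. Of the 23 members under 50 RPKM, 16, 20 and 23 were, and of the 20 members in between, 12, 15 and 19. The median log2 ratios in H3K36A were -1.31 at 100 RPKM or more, -2.10 in between and -2.00 under 50, those in eaf3Δ -0.78, -1.53 and -1.61, and those in set2Δ -0.46, -1.09 and -1.19. All named genes were counted in the same ranges of wild-type RPKM, with the lower end at the lowest member. In H3K36A, 11.7% of 878 genes at 100 or more, 20.8% of 688 genes between and 27.7% of 2073 genes under 50 were at least 2-fold lower. These shares were 9.45%, 18.2% and 26.1% in eaf3Δ and 3.30%, 7.56% and 12.5% in set2Δ. The wild-type value is also the denominator of each ratio, so the 2 quantities are not independent. NOG1 and TIF6 together made up 20.5% of the summed RPKM of the set in wild type, 34.4% in set2Δ, 35.9% in eaf3Δ and 38.2% in H3K36A. Without these 2 genes, the sum in H3K36A was 31.5% of that in wild type, against 40.6% with them.

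The mutants were also set against each other, which does not use the wild-type column. All 54 members had a lower RPKM in H3K36A than in set2Δ, where 63.6% of all named genes did. In eaf3Δ 52 of 54 were lower than in set2Δ, SPB4 and RSA4 being the exceptions, against 76.8% of all named genes. H3K36A was lower than eaf3Δ for 51 of 54, all but NOP12, NOP15 and NOP16, against 43.1%. The full order, set2Δ above eaf3Δ above H3K36A, held for 49 of 54 members and for 31.0% of all named genes.

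At the median these differences between mutants were smaller than those from wild type. The median log2 ratio of H3K36A to set2Δ was -0.68, and 11 members were at least 2-fold lower, against 1.01% of all named genes. RRP1 had the lowest ratio (-1.45), followed by PUF6 (-1.29), RRS1 (-1.28) and DBP9 (-1.21). The eaf3Δ to set2Δ gave a median of -0.40 and H3K36A to eaf3Δ -0.33, and no member passed 2-fold in either, against 1.13% and 0.563% of all named genes.

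**Figure D4:**
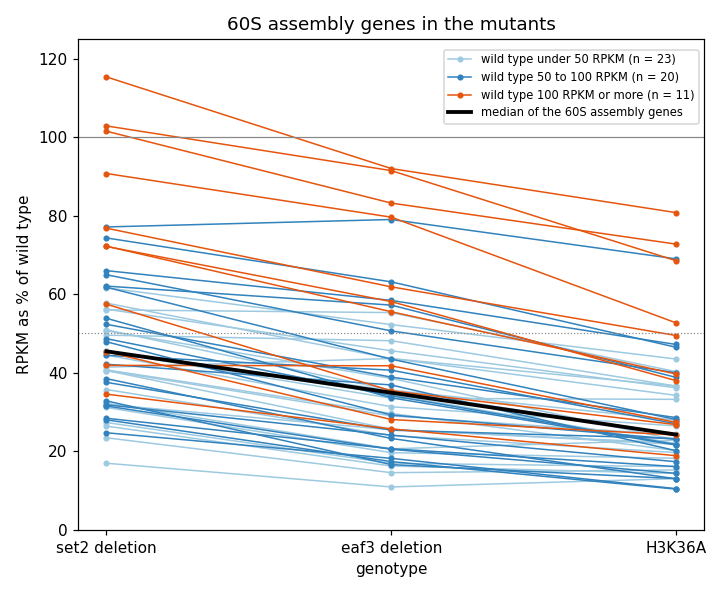
RPKM as a percentage of wild type (vertical axis) for each 60S assembly gene in set2Δ, eaf3Δ and H3K36A; each line joins the values of 1 gene and is coloured by its wild-type RPKM, and the black line is the median. The median goes from 45.5% in set2Δ to 34.9% in eaf3Δ and 24.3% in H3K36A, and 4 of the 11 most abundant genes lie at the top in set2Δ.

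Other gene lists of ribosome synthesis are given side by side, without a test between lists. Of 37 further 60S assembly and export genes with a row, 13 were at least 2-fold lower in set2Δ, 21 in eaf3Δ and 23 in H3K36A, against 11.4%, 22.9% and 23.5% of all named genes. All 37 were below wild type in each mutant. RRP8, a base methyltransferase of the large rRNA, had 25.5 RPKM in wild type and 3.50 in H3K36A, and NOP13 66.6 and 12.1. SQT1, a chaperone of a ribosomal protein, had 122.1 and 85.1. Genes of the small-subunit processome and 40S assembly were lower as well, and 26, 36 and 46 of 58 were at least 2-fold lower in set2Δ, eaf3Δ and H3K36A, against the same shares of all named genes. Their median log2 ratios were -0.87, -1.14 and -1.61, against -1.10, -1.48 and -1.93 for the 54 members of the 60S set.

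The 7 core snoRNP genes with a row went separate ways. At least 2-fold lower were 2 of them in set2Δ, 3 in eaf3Δ and 3 in H3K36A, against 11.4%, 22.9% and 23.5% of all named genes. In H3K36A these were NOP56, NOP58 and CBF5, NOP58 with 197.9 RPKM in wild type and 59.5 there. NOP1, SNU13, GAR1 and NOP10 did not pass 2-fold in H3K36A, NOP1 having 456.6 and 312.3. Protein genes of the 60S subunit itself had median log2 ratios of -0.06, -0.39 and -0.42 in set2Δ, eaf3Δ and H3K36A, where the median of all named genes was -0.32, -0.48 and -0.44. At least 2-fold lower were 2, 6 and 12 of 79 (2.53%, 7.59% and 15.2%), against 11.4%, 22.9% and 23.5%. These are abundant RNAs, with a median of 1978 RPKM in wild type. All named genes at 100 RPKM or more in wild type gave 3.30%, 9.45% and 11.7%, and median log2 ratios of -0.06, -0.21 and -0.17. Beside those genes the ribosomal protein genes had an equal median in set2Δ and lower medians in eaf3Δ and H3K36A.

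Assembly factors and ribosomal proteins can also be set side by side within families related in sequence. RLP24 RNA was at 18.9% of wild type in H3K36A, while RPL24A, which encodes the ribosomal protein it precedes, was at 58.8% and RPL24B at 44.4%. RLP7 was at 23.3%, and the related ribosomal protein genes RPL7A and RPL7B were at 70.2% and 67.3%. MRT4 was at 24.2% and RPP0, which encodes P0, at 107%. SSF1 and its near-copy SSF2, both assembly genes, stayed close to each other at 22.1% and 24.6%, although reads from such copies can be split by the authors' counting in a way that is not given here.

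**Figure D5:**
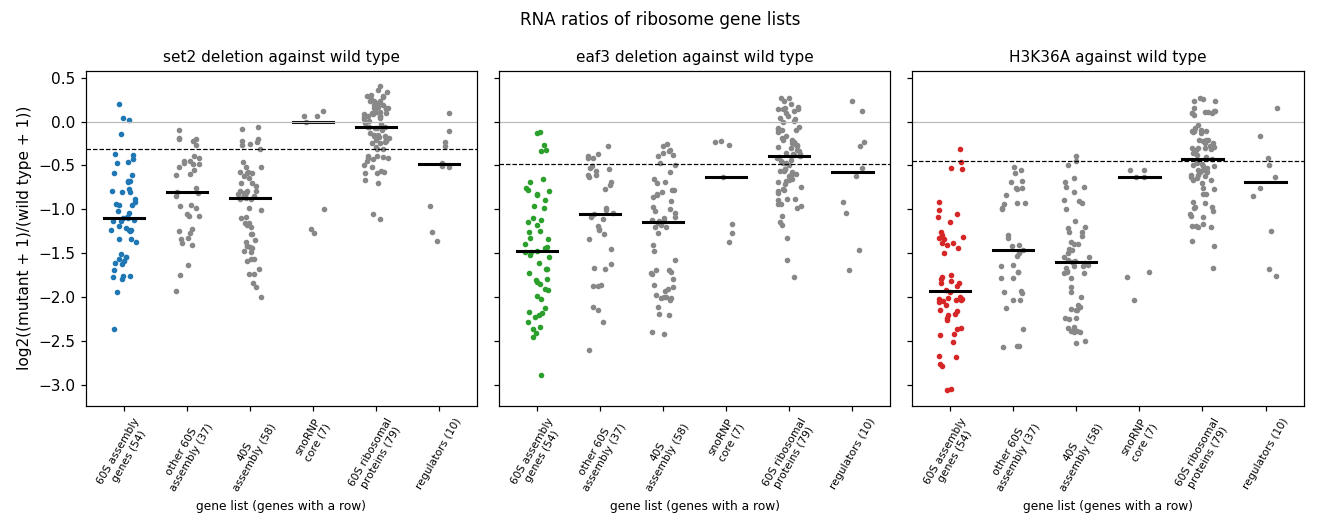
Log2 ratio to wild type (vertical axis) of each gene with a row in 6 gene lists, by mutant; each point is 1 gene, the bar is the list median and the dashed line the median of all named genes. The 60S assembly genes, the other 60S genes, the 40S assembly genes and, less far, the regulators have medians under the dashed line in each panel. The median of the 60S ribosomal proteins lies above it in both deletions and close to it in H3K36A.

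The genes are spread over the genome. The 55 genes lie on 15 of the 16 nuclear chromosomes, with at most 7 on one, and 29 are on the Watson and 26 on the Crick strand. In 9 cases the nearest gene on a side of a member belongs to another ribosome assembly list. SSF1 and RRP3, a helicase gene of the small subunit, are divergent with 297 bp between them, and RRP3 had 47.5 RPKM in wild type and 13.7 in H3K36A. MAK5 and BMT2, also divergent with a gap of 278 bp, were at log2 ratios of -2.03 and -1.95 in H3K36A. RPF1 and the snoRNP gene GAR1 converge 298 bp apart and differed, at -2.04 and -0.63. The 84 other flanking genes with a row had 12, 27 and 27 at least 2-fold lower in set2Δ, eaf3Δ and H3K36A, or 14.3%, 32.1% and 32.1%, against 11.4%, 22.9% and 23.5% of all named genes, and medians of -0.38, -0.59 and -0.49.

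By length, the 27 shorter members with a row (546 to 1557 bp) had 18 at least 2-fold lower in set2Δ, 21 in eaf3Δ and 24 in H3K36A, and the 27 longer ones (1563 to 14733 bp) had 13, 18 and 25. The median log2 ratios of the shorter members were -1.24, -1.80 and -2.03 in that order of mutants. Those of the longer members were -0.95, -1.33 and -1.75. All named genes of any length gave 11.4%, 22.9% and 23.5% at least 2-fold lower. They were not split by length, so whether short genes in general differ in this way was not tested.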

How the data were processed

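Of 17 libraries, 8 of RNA were used through their genotype means; the 9 ChIP and input DNA libraries were not analysed here. Libraries were stranded and rRNA-depleted, per the labels' protocols, and TopHat2 2.0.14 and the build sacCer3 are named for RNA, per the submitters' processing notes. Per the file headers, each RPKM value is a mean that the authors took across the replicate libraries of a genotype. The RPKM tool, gene models, use of strand and treatment of multi-mapping reads: not given in the sources used here; depth is unknown. The lowest RPKM in the table is 1.00, so the low end of the range is cut off. The table has 5328 rows with values; 2 rows named R (0.0032% of the wild-type sum) were left out, and 3 lines had been emptied for this work.

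Per gene, log2((mutant + 1)/(wild type + 1)) was computed with a pseudocount of 1 (Python 3.11.15, pandas 2.3.3, numpy 2.4.6), and genes were compared where RPKM averaged 10 or more; the calculation was tested on simulated data. The planned limma fit needed a column per library, and a planned search of promoter motifs was not run. Lists are described by counts and medians, with no test. Names, positions and lengths came from RefSeq (assembly R64, the build of sacCer3), which matched 5128 names by systematic name. Members and lists were chosen with earlier results of these data known. RPP1, a protein of RNase P whose symbol resembles those of the ribosomal P proteins, was taken out of the ribosomal protein list after its values were seen. Given with all 4 values were the 10 lowest and 6 highest H3K36A ratios and the ends of each of 13 role groups; other members, partners and relatives were added after their values were seen. Alternatives were a pseudocount of 0.1 or 5, a minimum mean of 1, centring, quantile normalization, leaving out small RNAs and, added after seeing the data, a minimum wild-type RPKM of 10.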

Additional observations from a re-analysis of the deposited data

How the results depend on the processing

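The count of members at least 2-fold lower and their median log2 ratio relative to the median gene were recomputed under each alternative for the 3 mutants, and no direction was reversed. In 35 of 39 recalculations the count stayed within 1.5 times, or the median within 0.1, of the value first given. In set2Δ the count went from 28 of 51 to 18 when ratios were centred on the median gene and to 15 after quantile normalization. The share of all genes compared went from 6.43% to 2.90% and 1.99% in the same settings. Quantile normalization also took the count from 36 to 26 of 51 in eaf3Δ and from 46 to 35 in H3K36A. There the shares of all genes compared went from 16.0% to 5.32% and from 18.0% to 8.22%. With a pseudocount of 5 the relative median was -1.35 in H3K36A in place of -1.55, and -0.94 in eaf3Δ in place of -1.08, since a larger pseudocount draws the ratios of low genes to 0. With small RNA genes left out and the rest rescaled, 26, 36 and 43 of 51 members were at least 2-fold lower in set2Δ, eaf3Δ and H3K36A. The shares of all genes compared were then 6.23%, 15.1% and 15.6%. No paired analysis was possible because the columns are means over the replicates, and no replicate could be left out for the same reason. Depth is unknown, so the counting error of members near 2 RPKM cannot be given.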

Other observations

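Of 10 genes with a row that regulate ribosome synthesis, 9 were below wild type in set2Δ, 8 in eaf3Δ and 9 in H3K36A. Among all named genes 77.3%, 81.0% and 72.8% were, so these counts lie near the share of all genes. At least 2-fold lower were 2, 3 and 3 of them, against 11.4%, 22.9% and 23.5% of all named genes. TOD6, which encodes a repressor of ribosome biogenesis genes, had 63.5 RPKM in wild type, 32.1 in set2Δ, 30.3 in eaf3Δ and 19.2 in H3K36A. DOT6, which encodes the related repressor, had 80.7, 86.7, 95.5 and 72.2. SFP1, an activator of ribosome genes, had 32.8, 23.4, 21.1 and 19.1, and FHL1, which acts at ribosomal protein genes, 10.02, 3.29, 2.40 and 2.26.

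The small nucleolar RNA snR191 lies inside the span of NOG2, at chromosome XIV 721938 to 722211, and has a row of its own. Its RPKM was 1654 in wild type, 2063 in set2Δ, 1977 in eaf3Δ and 2486 in H3K36A, higher in each mutant, as was the summed share of small RNAs. Whether NOG2 RNA differed was not analysed here.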
